A study of Mus musculus with 10 samples.

Results

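Microglia, the resident macrophages of the retina, were followed through 32 genes chosen by symbol: 6 that mark resting (homeostatic) microglia and 26 that mark activated microglia or macrophages more broadly. All 32 symbols were found among the 24736 of the mRNA table. RNA was taken from the eyeballs of Kunming mice, which are outbred; they were female and labelled as 4 weeks old. Of the mRNA libraries 3 belong to mice lit by an 18 W blue lamp while kept in a dark container (called blue A, B and C here) and 2 to mice left under natural light (control A and control B), and the sample titles carry day 14. The small RNA libraries, made separately, have the same 3 and 2. Whether the libraries within a group stem from different animals is not in the labels, and the p-values therefore reflect only how far these samples spread, which may be technical. Estimated counts summed to between 87071487 and 107660103 per mRNA library.

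Microglia tile the retina with motile processes. In the resting state they sense purines through P2ry12 and the neuronal chemokine fractalkine through Cx3cr1, and they depend on the receptor Csf1r for survival. In degenerating retina they move toward the photoreceptors and engulf debris. A program that depends on the lipid receptor Trem2 and its adaptor Tyrobp has been described in mouse brain, in which genes such as Itgax, Clec7a, Cst7, Spp1 and Gpnmb go up while homeostatic genes go down. A whole eyeball also holds macrophages of the choroid, ciliary body and conjunctiva, which share Csf1r, Ptprc, Lyz2 and most of the broader members with microglia.

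The microglial identity of the signal was first compared with defining genes. P2ry12, Tmem119, Siglech, Sall1 and the further microglia gene Fcrls were detected in every library. Genes of other leukocytes were mixed: the neutrophil genes S100a8, Mpo and Elane were each at 0 in at least 3 of the 5 libraries, and the T cell gene Cd3d was at 0 in 3. Csf3r, of neutrophils and monocytes, stood at 8.60, 4.75 and 6.48 CPM in blue A, B and C, against 2.19 and 1.45 CPM in control A and B. The neutrophil gene S100a9 went the other way, at 0.198, 0.084 and 0.176 CPM in blue libraries, against 0.755 and 0.383 CPM in controls. The monocyte gene Ccr2 stood at 10.1, 4.89 and 5.05 CPM in blue libraries, against 2.75 and 6.49 CPM in controls. P2ry12, Tmem119, Siglech and Sall1 are members themselves, so their detection shows only that the chosen genes were measurable. An eyeball library cannot tell microglia from other macrophages for the shared genes. Among the libraries, blue A and control A stood apart: blue A was the highest blue library for most members and control A the lower control, and values without either library are given for the members that it moved most. In a bulk library, fewer cells of a type and less RNA per cell cannot be told apart.

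Before the values, 4 promoters are shown for the members on which the results turn: Siglech, the only member that passed the test, P2ry12, the only one with a negative fold change, Itgax, with the largest fold change, and Ctss, with the smallest p of the pan-myeloid members. Each runs from 250 bases before to 50 after the annotated start (RefSeq, GRCm38.p6, on the gene's strand). Capitals mark GAGGAA on either strand, a core of sites for PU.1, the transcription factor (gene Spi1) that directs macrophage and microglia development.
Siglech, chr7:55767934-55768233, plus strand: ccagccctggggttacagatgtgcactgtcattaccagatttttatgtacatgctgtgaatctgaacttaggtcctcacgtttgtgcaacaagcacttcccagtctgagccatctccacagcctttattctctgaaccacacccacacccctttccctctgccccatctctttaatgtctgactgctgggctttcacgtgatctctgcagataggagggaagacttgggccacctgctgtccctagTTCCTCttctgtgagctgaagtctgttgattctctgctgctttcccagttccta
P2ry12, chr3:59262936-59263235, minus strand: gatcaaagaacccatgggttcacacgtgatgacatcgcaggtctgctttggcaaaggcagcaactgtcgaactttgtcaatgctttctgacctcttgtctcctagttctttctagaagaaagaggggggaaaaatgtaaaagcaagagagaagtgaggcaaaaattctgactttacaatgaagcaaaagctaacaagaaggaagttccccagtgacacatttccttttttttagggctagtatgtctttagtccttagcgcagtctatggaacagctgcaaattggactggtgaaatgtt
Itgax, chr7:128129300-128129599, plus strand: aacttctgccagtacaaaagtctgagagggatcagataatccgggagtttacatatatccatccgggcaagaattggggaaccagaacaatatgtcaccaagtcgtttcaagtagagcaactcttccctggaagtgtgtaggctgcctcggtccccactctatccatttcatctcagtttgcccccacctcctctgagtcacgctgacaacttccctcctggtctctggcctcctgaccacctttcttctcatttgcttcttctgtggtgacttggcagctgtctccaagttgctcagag
Ctss, chr3:95526536-95526835, plus strand: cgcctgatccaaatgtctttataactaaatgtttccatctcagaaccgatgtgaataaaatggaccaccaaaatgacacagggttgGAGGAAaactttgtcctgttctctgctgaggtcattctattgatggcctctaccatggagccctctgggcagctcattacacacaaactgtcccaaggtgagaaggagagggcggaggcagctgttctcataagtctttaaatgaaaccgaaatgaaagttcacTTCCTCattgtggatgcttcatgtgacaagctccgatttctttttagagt
GAGGAA was present in 13 of 25 members with a promoter window looked up, or 52%, against 31.3% of the 27025 genes with a window. The ETS-IRF composite element, where PU.1 binds beside IRF8, was searched on both strands too and can overlap GAGGAA. It was present in 2 of the 25 members (8%), Clec7a and Cd68, and in 3.16% of all genes. A match is a description of letters and says nothing of binding.

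The first question was whether homeostatic genes differed between blue light and natural light. Of the 6, Siglech rose in the edgeR test described below, and the remaining 5 did not pass it. Levels are TMM-scaled CPM, that is, each count relative to its library total after a correction that equalises libraries over most genes. The log2 fold change (log2FC) is the blue light level minus the control level. Adjusted p-values are from the quasi-likelihood test of edgeR, with Benjamini-Hochberg correction across 18988 tested genes and a threshold of 0.05, and the standard error (SE) restates that test. A raw p is the p before that correction. All 32 members passed the filter on low counts. Over all tested genes 0.664% were called higher, so 1 called member of 32 is read as a result about Siglech alone. In edgeR 0 of the 32 were called lower, where 1.55% of all tested genes were, and 0 had a raw p below 0.05 with a negative log2FC, against 9.27% of all tested genes. DESeq2 called 0 members lower against 4.65% of all tested genes, and limma-voom 0 against 1.72%. Of the 6 homeostatic genes, 4 had a raw p below 0.05 in edgeR with a positive log2FC, against 7.03% of all tested genes. DESeq2 called 3 of the 6 higher (Siglech, Cx3cr1 and Gpr34), against 4.46%, and limma-voom 1, Siglech, against 0.69%. Groups did not overlap, with blue higher, for 4 of the 6 and for 15.6% of all tested genes.

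Siglech encodes a sialic acid-binding surface receptor of mouse microglia that is also carried by plasmacytoid dendritic cells, and lies on chromosome 7 (55768154 to 55779448, mm10). It stood at 3.87, 2.93 and 3.68 CPM in blue A, B and C, against 0.988 and 0.915 CPM in control A and B. The groups did not overlap, and the lowest blue library lay well above both controls. The means were 3.49 ± 0.495 CPM under blue light and 0.951 ± 0.0520 CPM in controls (SD, n = 3 and n = 2), with a log2FC of 1.87 (SE 0.24, adjusted p = 0.0258 in edgeR). These levels correspond to 391, 315 and 335 estimated counts in the blue libraries and 110 and 74 in the controls. Its call was lost without control A (adjusted p = 0.175), control B (0.121), blue A (0.0583) or blue C (0.114) in edgeR, and held without blue B, while its log2FC stayed between 1.81 and 2.01. No list used here holds markers specific to plasmacytoid dendritic cells, so their part in the Siglech level was not tested.

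Cx3cr1, the fractalkine receptor on chromosome 9 (120048683 to 120068296), stood at 27.7, 17.1 and 22.3 CPM in blue A, B and C, against 9.33 and 12 CPM in the controls. Every blue library was above both controls. Its log2FC was 1.07 (SE 0.23), and it did not pass in edgeR (adjusted p = 0.0978). The mRNA of its ligand, Cx3cl1, had a log2FC of 0.08 (adjusted p = 0.709 in edgeR). Gpr34, a receptor for lysophosphatidylserine on the X chromosome (13622650 to 13640859), stood at 5.14, 4.99 and 4.86 CPM under blue light, against 3.49 and 2.92 CPM in the controls (log2FC 0.64, SE 0.17, adjusted p = 0.148 in edgeR). Its 3 blue values lay close together and above both controls. Its span lies within that of Cask (13517080 to 13846783), which stood between 74.7 and 86.6 CPM in blue libraries and at 75.8 and 93.3 CPM in controls. The sources used here do not give whether counting used strand, so reads of the pair could be shared.

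Sall1, a transcription factor that maintains microglial identity on chromosome 8 (89027242 to 89044162), stood at 18.6, 14.4 and 17.5 CPM under blue light, against 11.8 and 12.9 CPM in the controls. The groups did not overlap (log2FC 0.44, SE 0.14, adjusted p = 0.210 in edgeR). Tmem119, a membrane protein used to tell microglia from infiltrating macrophages, lies on chromosome 5 (113793729 to 113800396). It stood at 12.8, 8.10 and 11.3 CPM in blue libraries, against 8.04 and 8.80 CPM in controls (log2FC 0.35, SE 0.21, adjusted p = 0.487 in edgeR). Blue B lay between the controls, so the groups overlapped. Which cells of the eyeball the Sall1 and Tmem119 transcripts came from was not measured.

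P2ry12, the purine receptor that guides microglial processes to injury, lies on chromosome 3 (59216271 to 59262985). It stood at 5.68, 2.52 and 4.79 CPM in blue A, B and C, against 5.07 and 5.44 CPM in the controls. Blue A was above and blue B and C were below both controls, and the log2FC of -0.28 (SE 0.35, adjusted p = 0.760 in edgeR) was smaller than its error. Its span lies within that of Med12l (59005419 to 59318446), a Mediator subunit gene at 69.9, 77.7 and 70.0 CPM under blue light and 65.1 and 55.0 CPM in controls, with which reads could be shared.

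**Figure D1:**
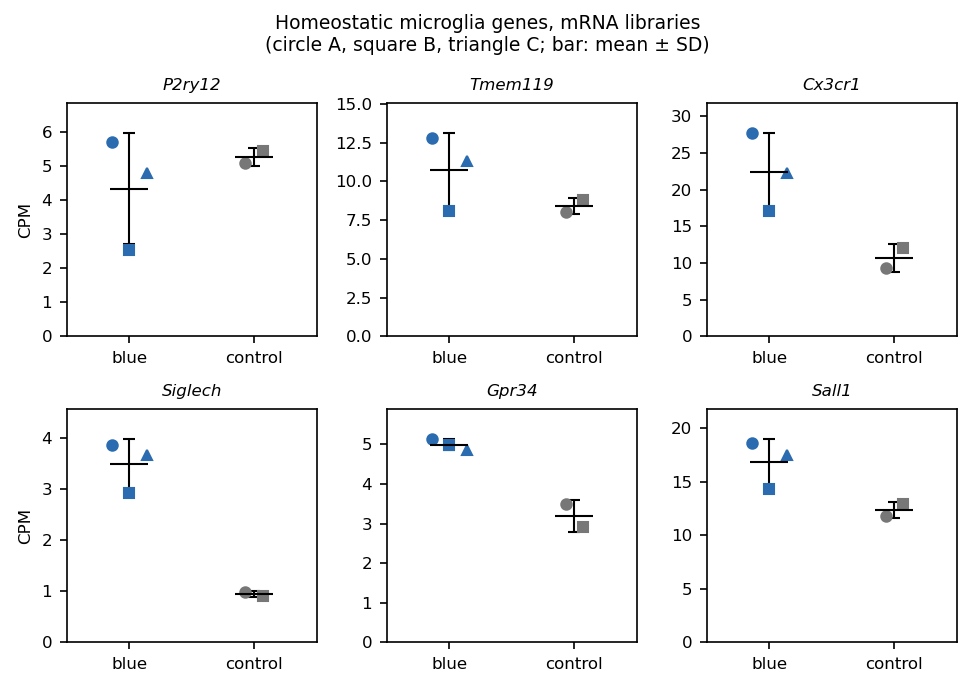
CPM of the 6 homeostatic genes (vertical axis, from 0) in the 3 blue light and 2 control mRNA libraries; symbols give the library letter and bars the mean ± SD. Siglech is at 2.93 CPM or more in each blue library and under 1 CPM in both controls, whereas P2ry12 overlaps.

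The homeostatic genes therefore did not share 1 fold change: their log2FC ran from -0.28 to 1.87, with a median of 0.54 against -0.01 over all tested genes. Ratios within libraries show the same values in another form; the pairs of genes were chosen after their values were seen, so the ratios are a description and no further support. Gene length cancels when 1 ratio is set across libraries. P2ry12 divided by Cx3cr1 was 0.205, 0.148 and 0.215 in blue A, B and C, against 0.543 and 0.453 in the controls. Tmem119 divided by Cx3cr1 was 0.461, 0.475 and 0.506 under blue light, against 0.861 and 0.733 in controls, and Siglech divided by Tmem119 was 0.303, 0.362 and 0.326, against 0.123 and 0.104. In each of these 3 ratios the groups did not overlap. Relative to Csf1r, the receptor expressed by microglia and other macrophages, P2ry12 was 0.0652, 0.0354 and 0.0642 under blue light, against 0.129 and 0.107 in controls. Cx3cr1 relative to Csf1r was 0.318, 0.239 and 0.299 under blue light and 0.238 and 0.236 in controls, where the lowest blue value lay just above them. Tmem119 and Sall1 relative to Csf1r were lower in every blue library than in either control, as P2ry12 was, Siglech was higher in every one, and Gpr34 overlapped. Among activation members set against Csf1r in the same way, Trem2, Itgax and Ctss were higher in every blue library, and Cd68 and Itgam lower.

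The second question concerned the activation genes. All 26 had a positive log2FC and 0 passed in edgeR, although 16 had a raw p below 0.05. DESeq2 called 14 and limma-voom 1, Ctss. Over all tested genes 7.03% had a raw p below 0.05 with a positive log2FC, and DESeq2 and limma-voom called 4.46% and 0.69% higher. Their median log2FC was 0.98. Groups did not overlap, with blue higher, for 18 of the 26 and for 15.6% of all tested genes.

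The disease-associated genes, named for their rise in mouse models of neurodegeneration, came first by role. Trem2, the receptor for lipids and apolipoproteins on chromosome 17 (48346401 to 48352276), stood at 5.40, 3.93 and 2.999 CPM in blue A, B and C, against 1.10 and 1.37 CPM in the controls. The log2FC was 1.73 (SE 0.32, adjusted p = 0.0631 in edgeR), and the groups did not overlap. Tyrobp, the adaptor (DAP12) that passes on the Trem2 signal, lies on chromosome 7 (30413782 to 30417582). It stood at 8.99, 7.09 and 6.66 CPM under blue light, against 2.08 and 3.92 CPM in controls, which themselves differed by 0.92 on the log2 scale (log2FC 1.34, SE 0.32, adjusted p = 0.115 in edgeR). Itgax, the integrin CD11c on chromosome 7 (128129526 to 128150657), stood at 4.16, 2.28 and 2.80 CPM under blue light, against 0.844 and 0.544 CPM in controls. Its log2FC of 2.14 (SE 0.38, adjusted p = 0.0585 in edgeR) was the largest of the 32. Cst7, the cathepsin inhibitor cystatin F on chromosome 2 (150570415 to 150578944), stood at 1.47, 1.66 and 2.04 CPM under blue light, against 0.782 and 0.902 CPM in controls (log2FC 1.03, SE 0.29, adjusted p = 0.158 in edgeR). The 4 genes were higher in every blue library than in either control.

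The remaining 4 disease-associated genes divided. Clec7a, the beta-glucan receptor Dectin-1, stood at 6.31, 5.08 and 6.16 CPM under blue light, against 1.01 and 3.40 CPM in controls (log2FC 1.42, adjusted p = 0.248 in edgeR). Its controls lay 1.76 apart on the log2 scale, more than its log2FC. Spp1 (osteopontin), Gpnmb and Lgals3 (galectin-3) had log2FC of 0.57, 0.16 and 0.10, with overlapping groups and adjusted p between 0.309 and 0.848 in edgeR. Gpnmb stood at 299.5, 291 and 328 CPM under blue light, against 248 and 300.4 CPM in controls, and Lgals3 at 50.4, 39.3 and 33.7 CPM against 35.9 and 41.0 CPM. As background, Gpnmb is also a gene of pigment cells, Lgals3 of the corneal epithelium and Spp1 of retinal ganglion cells, and which cells of the eyeball these transcripts came from was not measured.

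Among the 13 pan-myeloid genes, Ctss had the smallest p. It encodes cathepsin S, a lysosomal protease of antigen-presenting cells, on chromosome 3 (95526786 to 95556405). It stood at 93.6, 56.1 and 68.3 CPM in blue A, B and C, against 12.6 and 25.3 CPM in the controls (log2FC 1.94, SE 0.36, adjusted p = 0.0649 in edgeR and 0.0483 in limma-voom). The lowest blue library was more than both controls, although the controls were 1.003 apart on the log2 scale. Csf1r, on chromosome 18 (61105572 to 61131139), stood at 87.1, 71.3 and 74.6 CPM under blue light, against 39.3 and 50.9 CPM in controls (log2FC 0.78, SE 0.15, adjusted p = 0.0661 in edgeR). The groups did not overlap, and blue B and C were close together.

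Cd14, the co-receptor for bacterial lipopolysaccharide on chromosome 18 (36725064 to 36726815), stood at 4.23, 4.14 and 3.76 CPM under blue light, against 1.64 and 2.36 CPM in controls (log2FC 1.01, SE 0.23, adjusted p = 0.108 in edgeR). Mpeg1, the pore-forming protein perforin-2 on chromosome 19 (12460770 to 12465285), stood at 57.0, 38.3 and 41.2 CPM under blue light, against 13.7 and 24.1 CPM in controls (log2FC 1.27, SE 0.29, adjusted p = 0.110 in edgeR). Both were higher in every blue library. Of the remaining 9, groups did not overlap for Aif1 (the cytoskeletal protein Iba1), Fcgr3 and Fcer1g (an Fc receptor and its signalling chain), Laptm5, Ly86 and Cd53. Their log2FC lay between 0.86 and 1.29 and their adjusted p between 0.150 and 0.325 in edgeR. Ptprc (the phosphatase CD45), Cd68 (a lysosomal glycoprotein) and Itgam (the integrin CD11b) overlapped, with log2FC of 0.72, 0.33 and 0.12.

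Itgam showed how much 1 library could carry. It stood at 91.2, 47.1 and 33.8 CPM in blue A, B and C, against 48.8 and 57.0 CPM in the controls, so blue A was above and blue B and C were below both controls. Without blue A its log2FC was -0.37. Its integrin partner Itgb2 had 11.5, 6.76 and 8.48 CPM under blue light, against 3.72 and 5.71 CPM in controls.

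Of the 5 genes more typical of tissue macrophages, Msr1, a scavenger receptor on chromosome 8 (39543232 to 39642750), had the smallest p. It stood at 3.84, 2.31 and 2.55 CPM under blue light, against 0.934 and 1.36 CPM in controls (log2FC 1.34, SE 0.34, adjusted p = 0.132 in edgeR). Adgre1, the F4/80 antigen on chromosome 17 (57358581 to 57483529), stood at 11.99, 8.36 and 7.59 CPM under blue light, against 5.36 and 6.67 CPM in controls (log2FC 0.63, SE 0.24, adjusted p = 0.281 in edgeR). Neither passed, and in neither did the groups overlap. The lysozyme Lyz2, the mannose receptor Mrc1 and the haemoglobin scavenger receptor Cd163 had log2FC of 0.47, 0.47 and 0.36, with adjusted p between 0.483 and 0.735 in edgeR. Mrc1 stood at 66.8, 37.8 and 37.3 CPM under blue light, against 31.8 and 36.7 CPM in controls, so that blue A stood apart and blue B and C exceeded control B narrowly.

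**Figure D2:**
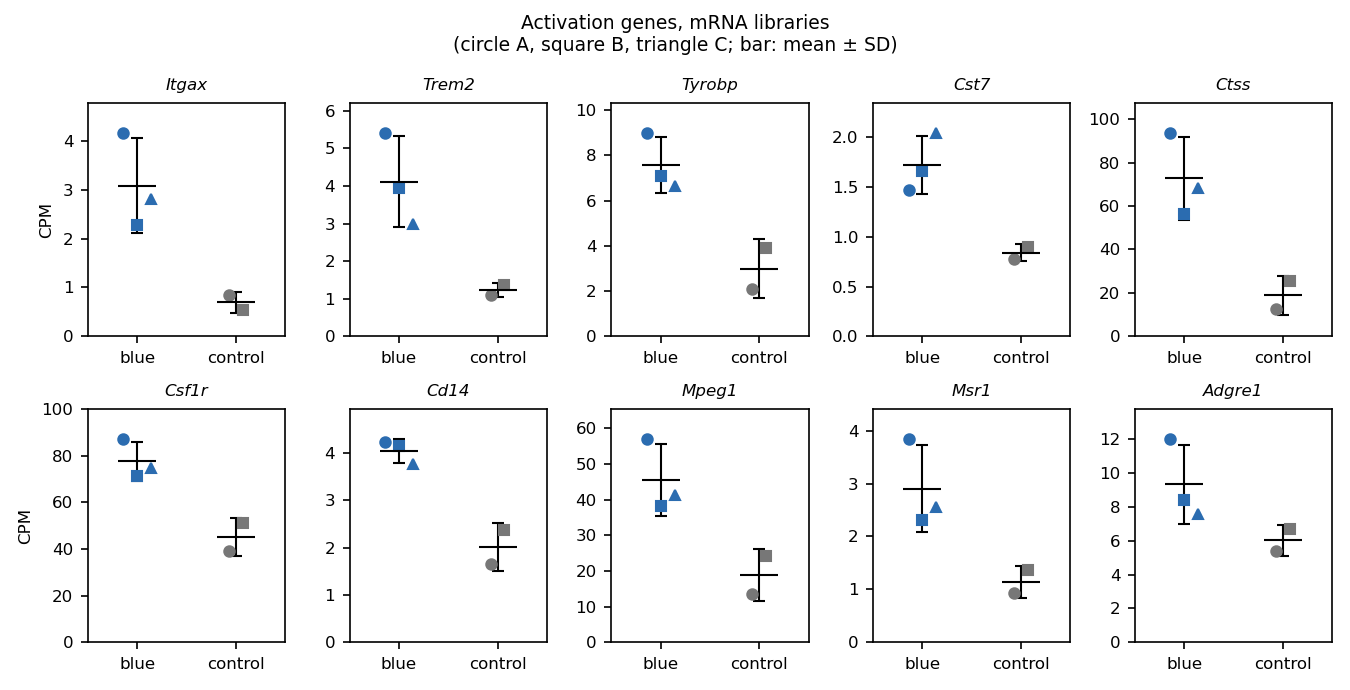
CPM (vertical axis, from 0) of the 10 activation genes given in every library, in the 3 blue light and 2 control mRNA libraries; symbols give the library letter and bars the mean ± SD. The 10 were picked for the smallest p in their role, so the lack of overlap in all 10 follows largely from that choice. Among all 26 activation genes it held for 18. Control A is below control B in 9 of the 10, Itgax being the exception.

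**Figure D3:**
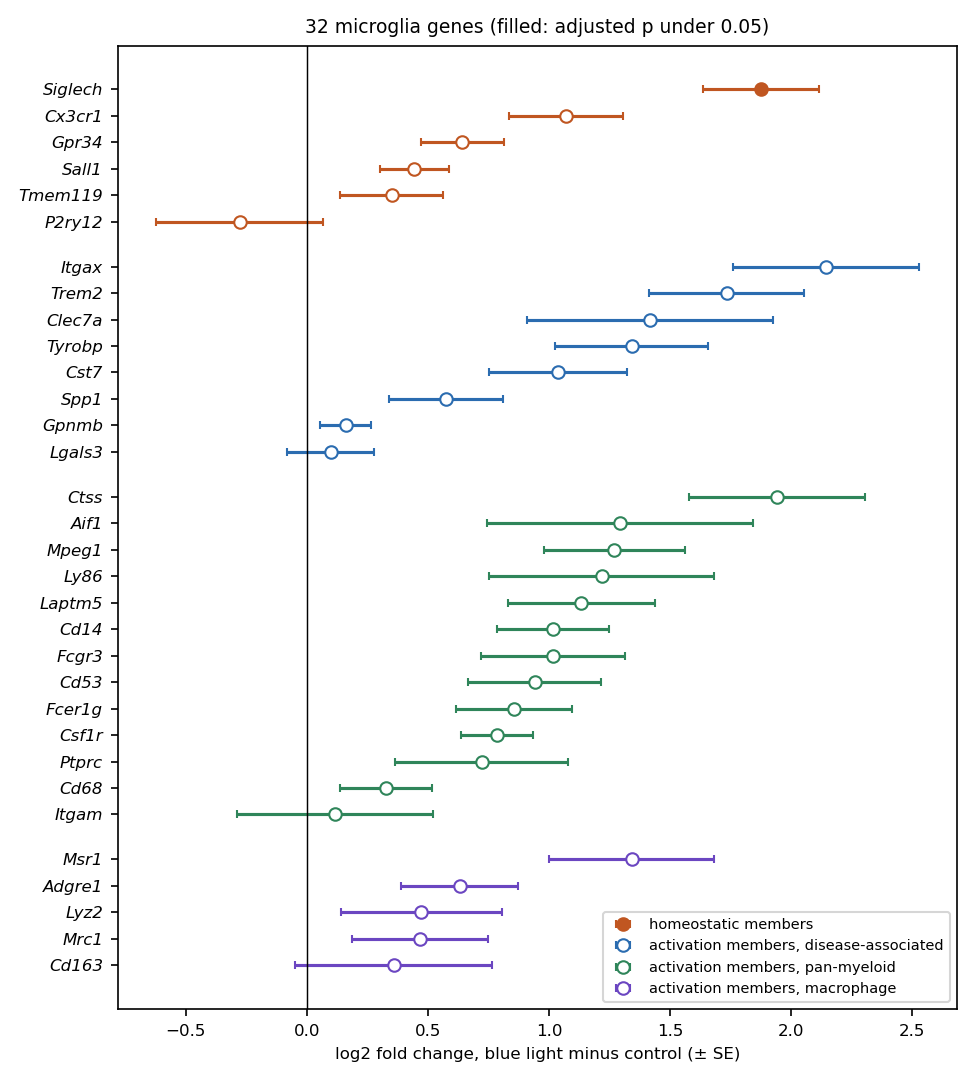
Log2 fold change (horizontal axis, blue light minus control, bars ± SE) of all 32 genes by role; a filled point marks an adjusted p under 0.05 in edgeR. Siglech at 1.87 is the only filled point, and P2ry12 at -0.28 is the only value below 0.

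The third question was whether activation genes moved apart from homeostatic genes. Median log2FC was 0.98 for activation and 0.54 for homeostatic members, a difference of 0.43, and the smaller classes had medians of 1.19 (disease-associated), 1.01 (pan-myeloid) and 0.47 (macrophage). Class levels per library were then taken as the mean log2 CPM over the members each member being centred on its own 5-library mean first. The homeostatic level was 0.50, -0.05 and 0.34 in blue A, B and C, against -0.42 and -0.36 in the controls. The activation level was 0.70, 0.20 and 0.23 under blue light, against -0.84 and -0.30 in controls. In both classes every blue library was above both controls.

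The activation level minus the homeostatic level was 0.20, 0.26 and -0.11 in blue A, B and C, against -0.41 and 0.07 in controls. The group means differed by 0.29, against a within-group SD of 0.25, and the values overlapped, with blue C below control B. The difference between the class medians was 0.17 without control A and 0.59 without control B. It was 0.25 without blue A, 0.41 without blue B and 0.43 without blue C. It was 0.23 with a mean CPM of at least 5, and 0.22 without P2ry12 and Gpr34, the 2 members inside larger genes. No test was made of this difference, because the members were chosen as lists.

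**Figure D4:**
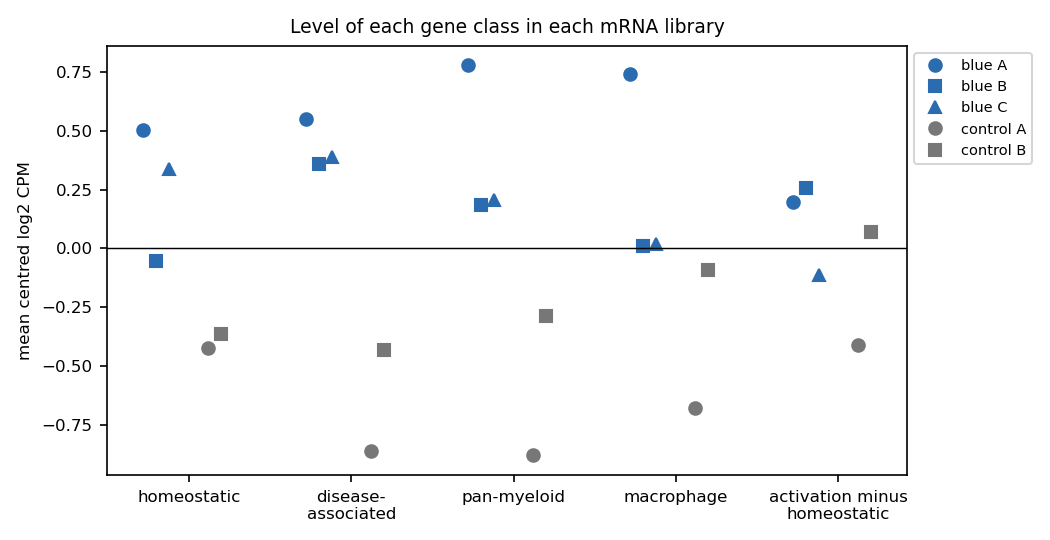
Mean centred log2 CPM (vertical axis) of each class of genes in each mRNA library, with blue light libraries left of controls in each class; the last column is the activation minus the homeostatic level. All blue libraries lie above all controls in the 4 classes, but not in the last column, where control B at 0.07 lies above blue C at -0.11.

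The libraries of a group were not alike for these genes. Control A was below control B in 24 of 26 activation and 4 of 6 homeostatic members, against 49.97% of all tested genes, with median differences of 0.40 and 0.11 on the log2 scale, control B over control A. Blue A was the highest blue library for 29 of the 32 members, against 36.5% of all tested genes. Other tissue markers moved with these libraries. The summed level of 10 skeletal muscle genes was 1213, 687 and 717 CPM in blue A, B and C, against 644 and 1238 CPM in control A and B, and 10 of 10 were highest in blue A among the blue libraries and lower in control A than in control B. The summed level of 6 keratin genes of the ocular surface was 5151, 4462 and 3952 CPM in blue libraries, against 3705 and 4657 CPM in controls. Their part in the members' values was not tested. The activation median log2FC was 0.76 without blue A and 0.77 without control A.

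Single members moved by over 1.5 times with these libraries. Without control A the log2FC was 0.81 for Clec7a, 0.71 for Aif1, 0.29 for Ptprc, 0.75 for Laptm5, 0.16 for Lyz2 and -0.07 for Cd163. Without control B the log2FC was 2.54 for Clec7a, 2.33 for Aif1, 1.39 for Ptprc, 0.91 for Lyz2 and 1.01 for Cd163. Without blue A the log2FC was 0.75 for Ly86, 0.19 for Lyz2, 0.15 for Mrc1, 0.06 for Cd163, 0.20 for Cd68, 0.22 for Tmem119 and -0.50 for P2ry12, and without blue B it was 0.02 for P2ry12 and 0.54 for Tmem119. Lgals3, Gpnmb and Itgam, whose log2FC lay near 0, also moved by over 1.5 times. None of these members passed in edgeR in any of these fits.

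Genes of the same pathways, listed beside the members, were read next. Of 22 further microglia genes 2 rose, and 1 of them is described. Ctsd, the protease cathepsin D, stood at 559.7, 516 and 539 CPM under blue light, against 322 and 387 CPM in controls (log2FC 0.60, SE 0.10, adjusted p = 0.0483 in edgeR). It is also made by many other cells of the eye. The list's median log2FC was 0.69, with 17 genes at a raw p below 0.05 and a positive log2FC, against 7.03% of all tested genes. The call of Ctsd was lost without any 1 of the 5 libraries (adjusted p between 0.0833 and 0.206 in edgeR).

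Of 14 genes for ligands and signalling of the member receptors, 13 were tested. In edgeR 0 passed and 8 had a raw p below 0.05, all higher, against 7.03% of all tested genes. DESeq2 called 8 higher, against 4.46% of all tested genes, and limma-voom 1, Tgfb2, against 0.69%. Csf1, a ligand of Csf1r, stood at 37.4, 29.2 and 36.5 CPM under blue light, against 20.6 and 20.1 CPM in controls (log2FC 0.76, SE 0.13, adjusted p = 0.0537 in edgeR). Tgfb2, a relative of the factor that keeps microglia in the resting state, stood at 183, 157 and 164 CPM, against 109 and 119 CPM in controls (log2FC 0.56, SE 0.096, adjusted p = 0.0510 in edgeR). Groups did not overlap for either gene. Hcst, the adaptor DAP10, did not pass the filter on low counts. Among 8 microglia transcription factor genes 0 passed in edgeR. A raw p below 0.05 was seen for 1 higher and 1 lower, against 7.03% and 9.27% of all tested genes. DESeq2 called the same numbers and limma-voom 0. Irf8, which shapes microglia with PU.1, had a log2FC of 0.90 (adjusted p = 0.130) and Mef2c -0.60 (adjusted p = 0.137) in edgeR. Spi1, the gene of PU.1, stood at 3.76, 1.63 and 2.59 CPM under blue light, against 1.06 and 2.16 CPM in controls. Its groups overlapped (log2FC 0.73, SE 0.47, adjusted p = 0.518 in edgeR).

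Markers of the other leukocytes that an eyeball can hold did not pass, but several of their lists had positive medians. The median log2FC was 0.53 for border macrophage genes (7 of 8 positive), 0.50 for monocyte genes (5 of 6) and 0.72 for neutrophil genes (5 of 7), beside 0.54 for the homeostatic and 0.47 for the macrophage members. It was -0.39 for lymphocyte, 0.11 for dendritic and 0.27 for mast cell genes. The neutrophil median was the value of Ltf (SE 1.04), at 15.0, 3.47 and 1.05 CPM in blue A, B and C, against 5.32 and 2.61 CPM in control A and B. Retnlg and Cxcr2 reached at most 0.455 and 0.208 CPM in any library, and S100a9 and Ngp had log2FC of -1.90 and -0.54. The part of these leukocytes in the members' values was not tested. In edgeR 0 of 8 border macrophage, 6 monocyte, 8 lymphocyte and 7 dendritic cell genes tested passed, and 0 had a raw p below 0.05; DESeq2 and limma-voom called 0. A further monocyte gene and 3 lymphocyte genes were below the filter on low counts. Among the smallest p values in these lists were those of Pf4 and F13a1 (log2FC 0.62 and 0.90), Ccr2 (0.54), Cd79a (-0.84), and Ccr7 and Flt3 (-1.41 and 0.29). Summed levels were 313, 114 and 118 CPM in blue A, B and C against 134 and 208 CPM in controls for border macrophage genes, of which Cbr2 made up 179 CPM in blue A. For monocyte genes they were 807, 592 and 577 CPM, against 557 and 631 CPM. Fn1 made up most of that sum in every library, with 677, 534 and 534 CPM against 509 and 550 CPM. For lymphocyte genes the summed levels were 4.37, 2.95 and 4.09 CPM, against 4.06 and 5.12 CPM. For dendritic cell genes they were 14.3, 13.3 and 10.7 CPM, against 11.9 and 12.7 CPM. Of 10 neutrophil genes 7 were tested and 0 passed in edgeR, and their summed level was 25.6, 9.93 and 8.77 CPM under blue light, against 9.29 and 5.95 CPM in controls. A raw p below 0.05 was seen for Csf3r, a cytokine receptor shared with monocytes (log2FC 1.86, adjusted p = 0.0595 in edgeR), and S100a9 (-1.90, adjusted p = 0.206 in edgeR). DESeq2 called 1 of them, Csf3r, and limma-voom 0. Of 7 mast cell genes 0 passed in edgeR, with a raw p below 0.05 for Hdc (-1.52) and Kit (-0.13) next; DESeq2 and limma-voom called 0. Their summed level was 78.4, 63.6 and 59.5 CPM in blue libraries, against 66.6 and 71.4 CPM in controls.

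Lists for other tissues gave 1 call. Of 9 adipocyte genes adipsin (Cfd) rose, with a log2FC of 2.55 (adjusted p = 0.0468 in edgeR). A raw p below 0.05 was seen for 3 of the 9, all higher, against 7.03% of all tested genes. They were Cfd, Cidec and Lpl, the last also among the 22 further microglia genes. DESeq2 called 3 higher, against 4.46% of all tested genes, and limma-voom 0, against 0.69%. Of the 9, 8 had a positive log2FC, against 49.0% of all tested genes. The list's median log2FC was 1.61, above that of every class of members. It was the value of Plin1, at 1.26, 0.075 and 1.09 CPM in blue A, B and C, against 0.359 and 0.161 CPM in control A and B. The groups overlapped for Plin1 (SE 1.13). Lpl and Plin4, the most abundant of the list, had log2FC of 0.45 and 0.26. Cidec and Lep were at 0 in both controls. Their bounds against a floor of 3 counts per control library, 4.73 and 2.87, lay above the median, so using them could not move it. The part of the adipocyte genes in the members' values was not tested. The summed level of the list, carried mostly by Lpl and Plin4, was 89.7, 74.9 and 79.0 CPM in blue libraries, against 52.7 and 66.7 CPM in controls. The call of Cfd held in edgeR without blue B and was lost without any 1 of the other libraries (adjusted p between 0.103 and 0.266) and in limma-voom (adjusted p = 0.118). In edgeR 0 of 10 skeletal muscle and 6 keratin genes passed or had a raw p below 0.05, and DESeq2 and limma-voom called 0; the smallest p were those of Tnnt3 and Atp2a1, and Krt14 and Krt13. Among 9 genes of the retinal pigment epithelium and 16 lens crystallin genes 0 passed in edgeR. A raw p below 0.05 was seen for 2 of the first (Tyr and Ttr) and 1 of the second (Cryba2, with Crybb2 next), DESeq2 called 2 and 1, and limma-voom 0. Of 6 red blood cell genes 5 were tested and 0 passed in edgeR, with a raw p below 0.05 for Hbb-bs and Alas2, and DESeq2 and limma-voom called 0.

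The small RNA libraries gave a further readout of myeloid cells, in microRNAs (miRNAs) known from these cells. miR-142a and miR-223 are largely confined to blood-derived cells, miR-155 and miR-146a are induced by inflammatory signals, and miR-511 lies in an intron of the member Mrc1 (miR-511-3p at chr2:14261051-14261072, within the Mrc1 span 14229414 to 14332023). The mature sequences of those with the results below are given from RefSeq (GRCm38.p6), 5′ to 3′, with the seed, bases 2 to 8, in capitals. The 11 listed miRNAs with a sequence had 11 different seeds.
mmu-miR-142a-5p: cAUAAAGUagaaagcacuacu
mmu-miR-142a-3p: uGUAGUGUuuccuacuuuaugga
mmu-miR-223-3p: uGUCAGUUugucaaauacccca
mmu-miR-155-5p: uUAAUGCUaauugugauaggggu
mmu-miR-146a-5p: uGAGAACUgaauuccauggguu
mmu-miR-511-3p: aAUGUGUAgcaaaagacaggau
mmu-miR-21a-5p: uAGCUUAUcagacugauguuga

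Of 12 listed miRNAs 10 were tested and 0 passed in edgeR among 641 tested miRNAs, of which 0.312% were called higher and 0.312% lower. Of the 10, 2 had a raw p below 0.05 with a positive log2FC, against 5.3% of all tested miRNAs, and 0 with a negative one, against 6.55%. DESeq2 called 0, against 0.468% of all tested miRNAs higher and 1.25% lower, and limma-voom called 0. The first, miR-146a-5p, stood at 1510, 1245 and 1588 CPM in blue A, B and C, against 576 and 1066 CPM in control A and B (log2FC 0.82, SE 0.25, adjusted p = 0.276 in edgeR). The second, miR-223-3p, stood at 29.3, 23.3 and 39.2 CPM under blue light, against 10.4 and 22.2 CPM in controls (log2FC 0.90, SE 0.33, adjusted p = 0.337 in edgeR). In both, each blue library was above both controls, blue B by little. miR-511-3p stood at 3.64, 3.81 and 4.55 CPM under blue light, against 2.17 and 2.82 CPM in controls (log2FC 0.67, SE 0.33, adjusted p = 0.471 in edgeR), also without overlap. The same held for 14.8% of all tested miRNAs with blue higher.

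Groups overlapped for the remaining 7. miR-142a-3p stood at 131, 77.9 and 110.5 CPM under blue light, against 49.2 and 98.0 CPM in controls (log2FC 0.53, adjusted p = 0.544 in edgeR), and miR-142a-5p at 239, 130.0 and 132 CPM, against 89.9 and 174 CPM (log2FC 0.34). miR-155-5p stood at 27.6, 20.2 and 37.2 CPM, against 11.6 and 23.7 CPM (log2FC 0.68), and miR-21a-5p at 19818, 13458 and 13909 CPM, against 10880 and 14669 CPM (log2FC 0.30). The low arms miR-223-5p, miR-511-5p and miR-21a-3p had log2FC of 0.52, 0.49 and -0.31. Adjusted p of these 6 lay between 0.471 and 0.888 in edgeR, and miR-155-3p and miR-146a-3p did not pass the filter on low counts.

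Control A was below control B for 9 of the 10 tested myeloid miRNAs, against 39.5% of all tested miRNAs, with a median difference of 0.94 on the log2 scale. It was likewise the lower control for 28 of the 32 member mRNAs. The labels do not say whether an mRNA and a small RNA library with the same letter came from the same eye. Among 4 miRNAs of other blood cells, miR-451a of red blood cells stood at 250.1, 192 and 305 CPM under blue light, against 265 and 208 CPM in controls, and miR-150-5p of lymphocytes at 81.3, 69.6 and 72.1 CPM, against 72.9 and 86.9 CPM. Of the 4 (with miR-144-3p and miR-144-5p, log2FC -0.38 and 0.27), 0 passed in edgeR or had a raw p below 0.05, and DESeq2 and limma-voom called 0.

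**Figure D5:**
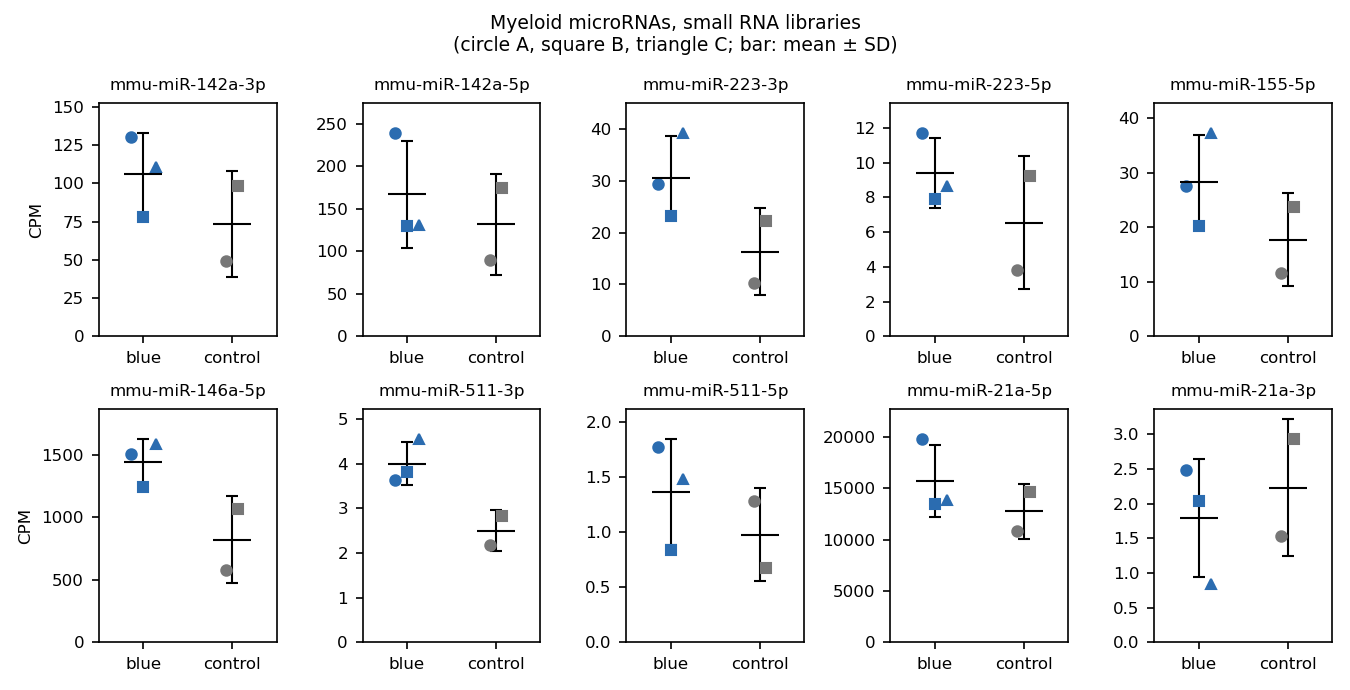
CPM (vertical axis, from 0) of the 10 tested myeloid miRNAs in the 3 blue light and 2 control small RNA libraries; symbols give the library letter and bars the mean ± SD. miR-146a-5p, miR-223-3p and miR-511-3p are the 3 without overlap, and control A is the lower control in all but miR-511-5p.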

How the data were processed

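The authors deposited 2 tables of the series, with estimated counts per gene symbol (24736) and counts per mature miRNA (1978), neither normalised by the authors as far as the values show. The submitters' processing notes list mm10 as the build, and as tools StringTie, HISAT2, limma, DESeq2 and bcl2fastq 2.0, giving no role for any; the sources used here do not give the counter or its strand setting. The estimated counts are whole numbers, so rounding changed nothing. Sample titles tie each column to its library, and the treatment label sets its group. Totals ran from 8355432 to 10875487 counts for miRNA. No counting intervals are given, because an estimated count is not 1 read.

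Blue light was set against control separately for mRNA and miRNA. edgeR 4.0.16 (R 4.3.3) scaled libraries by TMM, dropped low features with filterByExpr and fitted its quasi-likelihood test; p-values were adjusted after Benjamini and Hochberg over every tested feature, with 0.05 as threshold. Class levels used log2 CPM with a prior count of 2. DESeq2 1.42.0 and limma-voom (limma 3.58.1) were alternatives, with other scalings and filters, the letter as a block, and each library left out. The pipeline was tested on simulated counts. Members, lists and rules were chosen with earlier results of these data known. All members are accounted for, with every library for the 6 homeostatic genes and for 10 activation genes (smallest p by role: 4 disease-associated, 4 pan-myeloid, 2 macrophage), and the 2 genes with the smallest p in each further list, some of which are not reported here. Values for Clec7a, Gpnmb, Lgals3, Itgam, Itgb2, Mrc1, Cx3cl1, Spi1, Fn1 and the ratios were added after they were seen. Positions are from RefSeq GRCm38, the assembly called mm10.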

Additional observations from a re-analysis of the deposited data

How the results depend on the processing

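The single called member, Siglech, kept its call with DESeq2's size factors, with scaling without lens, muscle and red cell genes, without the low-count filter and, in an alternative chosen after seeing the data, with mRNA values divided by 4. The number of members called higher was 3 with library totals as the only scaling, where 124 of all 18988 tested genes were. It was 2 in limma-voom (131 of all 18988) and 17 in DESeq2 (846 of all 18988). It was 0 with a mean CPM of at least 5 (164 of all 12880), where Siglech was not tested. It ran from 0 to 1 with each library left out. A control left alone was given the spread of the blue libraries. The letters A, B and C are not said to pair samples. Deviations of same-letter libraries from their group means had r = -0.18 for A and -0.15 for B across genes. Across miRNAs r was -0.04 for A and -0.11 for B. Deviations of the 2 controls mirror each other and genes are not independent, so these r cannot decide whether letters pair samples. With the letter as a replicate block 0 members and 0 of all genes passed in edgeR. In that fit 15 members had a raw p below 0.05 with a positive log2FC, as had 636 of all 18988 tested genes. No setting called a member lower. With each library left out, the difference between class medians ran from 0.17 to 0.59, and log2FC from -0.069 to 1.01 for Cd163, -0.056 to 0.22 for Lgals3, -0.37 to 0.39 for Itgam and -0.50 to 0.017 for P2ry12, so these 4 changed sign; the cause was not tested. The class medians themselves moved by less than the spread between libraries in every setting run. Their difference moved by more than its within-group SD of 0.25 without control A, from 0.43 to 0.17. Of the myeloid miRNAs 2 passed without the low-count filter (miR-223-3p and miR-146a-5p) and 0 in the other settings. Levels near 1 CPM, as for Siglech, Itgax, Cst7 and Trem2 in controls, rest on 44 to 123 estimated counts, and 2 controls limit every comparison.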
